A study of Mus musculus with 8 samples.

Results

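A set of 9 genes, which the study names as miR-33 targets and which work outside the classical lipid pathways, was followed in the livers of mice on a steatogenic diet. All 9 (Ski, Ddx3x, Il17ra, Zbtb2, Klf15, Slc25a51, Slc30a1, Edem1 and Atp11a) were found by symbol among the 17810 genes of the deposited table, and all 9 had enough counts to be among the 12395 genes tested. The livers came from 4 WT and 4 HKO male littermates. Feeding with CD-HFD, a diet rich in fat and low in choline, began when the mice were 8 weeks old and lasted 3 months, and livers were taken at 5 months. The paper states that mice were fasted for some hours at its end time points. HKO mice carry miR-33 alleles flanked by loxP sites and a Cre recombinase transgene under the albumin promoter (labelled AlbCRE), which acts in hepatocytes. Cells in which that promoter is silent keep the miRNA, the miRNA itself was not analysed here, and whether WT mice carry the floxed allele is not given in the sources used here. The genes were chosen by their higher counts in HKO than in WT livers in these same data, together with their status as predicted miR-33 targets. Their genotype differences are therefore given as a description, and nothing is read from their direction. Where the calls of a test are listed for these genes, they are not read as support.

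miR-33 is a small RNA encoded in an intron of Srebf2, the gene of a transcription factor that switches on cholesterol synthesis and uptake. Loaded into an Argonaute protein, it pairs through its seed with messenger RNAs, mostly in their 3′UTR, and lowers their stability and translation. The cholesterol exporter ABCA1 is its best known target in the liver. Most other targets are affected mildly, so that the loss of a miRNA is usually seen as small increases in many messages.

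The mature sequence of the guide strand, from RefSeq (GRCm38.p6, chr15:82198127-82198147, plus strand), is shown because every match described here is read against it, with the seed at bases 2 to 8 in capitals.
mmu-miR-33-5p: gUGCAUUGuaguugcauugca

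For each gene, the longest annotated 3′UTR (GENCODE M21, GRCm38) was searched on the sense strand for the words that pair with this seed. These were CAATGCA, which pairs with bases 2 to 8, AATGCAA, which pairs with bases 2 to 7 and ends in an A, and CAATGCAA, which is both. The core AATGCA, shared by all of them, was counted separately where it stood alone. All 9 genes held at least 1 match of 7 or 8 bases, against 16.1% of the 11608 tested genes with an annotated 3′UTR. Predicted targets are chosen for such matches, so this share describes the choice of the genes. Long 3′UTRs also hold more words by length alone. The 3′UTR was longer than the median of 1201 bases in 8 of the 9 genes, and 25.4% of tested genes with a 3′UTR of at least 1084 bases, the shortest of the 9, held a match.

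The genes differed in the kind of match. Ski held the only match of 8 bases, a kind found in 2.09% of tested genes. Il17ra and Slc30a1 each held 1 match to bases 2 to 8. The other 6 genes held matches of the AATGCAA kind alone, with 2 each in Zbtb2, Klf15 and Slc25a51. Of the 12 matches, 11 are printed in stretches of 22 bases as transcribed, with the matched bases in capitals, since these are the bases the seed can pair with.
Ski, chr4:155155739-155155760, minus strand: ccccttctgacgtgCAATGCAA
Il17ra, chr6:120482734-120482755, plus strand: gacctcagagaaatCAATGCAg
Slc30a1, chr1:191911750-191911771, plus strand: tatttatttctttaCAATGCAc
Ddx3x, chrX:13292217-13292238, plus strand: actgttctcaaagttAATGCAA
Zbtb2, chr10:4367927-4367948, minus strand: agaactactttaacaAATGCAA
Zbtb2, chr10:4367456-4367477, minus strand: tccaaaaaataaaaaAATGCAA
Klf15, chr6:90474792-90474813, plus strand: taatgcatgtgcttaAATGCAA
Slc25a51, chr4:45399186-45399207, minus strand: actagacctaaggaaAATGCAA
Slc25a51, chr4:45398402-45398423, minus strand: tatttcaggggttttAATGCAA
Edem1, chr6:108855922-108855943, plus strand: tgctagaggatcaggAATGCAA
Atp11a, chr8:12868248-12868269, plus strand: aagcgtcacttggtgAATGCAA

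The first match of Slc25a51 began at base 49 of its 3′UTR, and that of Atp11a at base 3355, leaving 459 bases to the end of the transcript. In Klf15 the second match began at base 670, close behind a 6-base core at base 656, and the sequence printed above holds both. All 22 matches, including 10 of 6 bases, lay within the gene ranges that the authors counted.

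**Figure D1:**
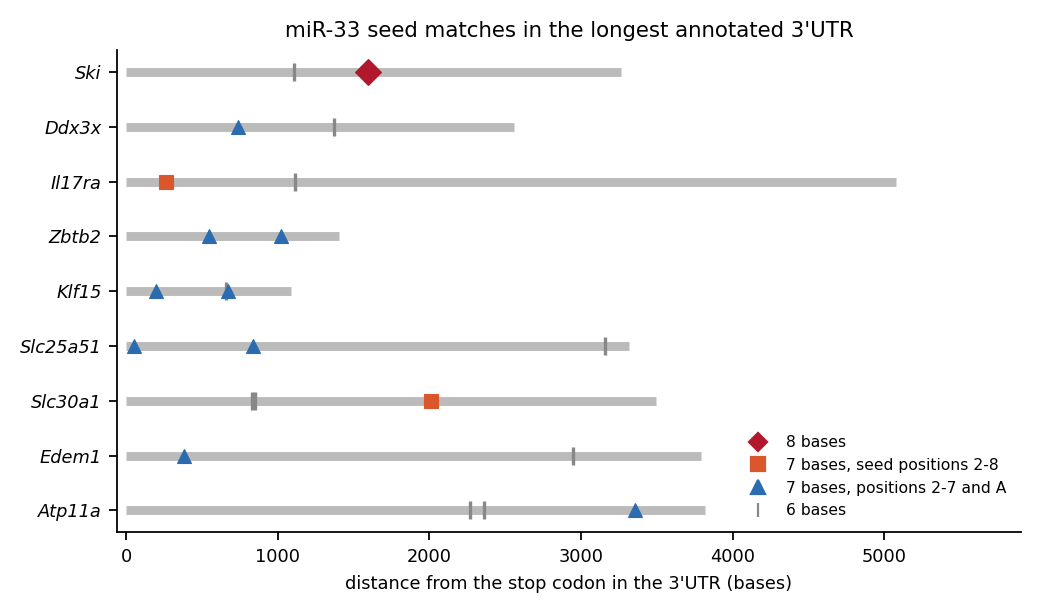
Grey bars show the length of each gene's longest 3′UTR, with the distance from the stop codon in bases on the x axis, and symbols mark matches of 8, 7 and 6 bases to the miR-33 seed. The single match of 8 bases stands in Ski at base 1595, and the matches of 7 bases range from base 49 in Slc25a51 to base 3355 in Atp11a.

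Library totals ran from 12174339 to 18735785 estimated counts. Levels are given as CPM, the counts for every 1000000 counts of a TMM-scaled library, and 3 counts correspond to between 0.149 and 0.255 CPM. The summed hepatocyte markers (8 genes, among them Alb, Ttr and Cps1) lay between 84792 and 118363 CPM in WT and between 75644 and 131421 CPM in HKO livers. Of these, 3 were called higher (Cps1, Ass1 and Hnf4a, with adjusted p from edgeR between 0.00427 and 0.0442). Over all genes tested, edgeR called 1.71% higher and 5.15% in either direction. The other 5 hepatocyte markers were not called, and 2 of the 8 had a log2 fold change below 0. Cps1 kept its call whichever liver was left out, Ass1 only without WT replicate 4 or HKO replicate 3 (log2 fold changes of 0.72 to 0.80 where it lost it), and Hnf4a only without HKO replicate 3 (0.30 to 0.38 where it lost it). Hnf4a was also not called under total count scaling (0.27) or with the replicate block (0.35). Among the 8 stellate cell and matrix markers Col1a1 and Col3a1 were called lower. The other 6 were not called, and 2 of the 8 had a log2 fold change above 0. Their summed level was 395 to 554 CPM over the WT and 317 to 437 CPM over the HKO livers. Col3a1 was not called with the replicate block (log2 fold change -1.86). Of the 8 macrophage and 6 endothelial markers, 0 were called by edgeR, DESeq2 or limma-voom, with 0 at an unadjusted p under 0.05. Macrophage markers had a median log2 fold change of -0.02, with 3 above 0 and 5 below. Endothelial markers had a median of 0.48, with 5 above 0 and 1 below. The summed endothelial level was 59.7 to 195 CPM over the WT and 98.2 to 220 CPM over the HKO livers. Cholangiocyte markers summed to at most 8.94 CPM among the WT livers. HKO replicate 2 stood apart at 45.2 CPM, with 16.5 CPM of Epcam against 0.451 to 1.02 CPM in the other HKO livers, whose sums lay between 6.75 and 16.4 CPM. Neutrophil markers summed to at most 2.86 and 7.26 CPM, and lymphocyte markers to at most 3.23 and 3.58 CPM, and 0 were called by the 3 tools, with 0 at an unadjusted p under 0.05, among the 4 of these genes with enough counts to be tested. In whole liver, fewer cells of a type and less RNA per cell cannot be told apart, and the part of these markers in the results below was not tested. The library numbers in the file headers run through the HKO livers and then the WT livers, so library order and genotype cannot be told apart.

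Per kilobase of the longest coding transcript, the members spanned a wide range of WT levels. Ddx3x stood first at 62.8 ± 2.08 CPM per kilobase (SD, n = 4 livers), followed by Klf15 at 39.8 ± 6.35 and Edem1 at 33.7 ± 2.65, whose ranges overlapped each other in WT livers. Slc25a51 at 13.8 ± 3.12 and Slc30a1 at 13.1 ± 0.476 CPM per kilobase overlapped as well. Ski followed at 4.15 ± 0.203 CPM per kilobase. Zbtb2 at 2.14 ± 0.163, Il17ra at 1.83 ± 0.118 and Atp11a at 1.81 ± 0.584 CPM per kilobase could not be ordered, since their WT ranges overlapped from neighbour to neighbour. The transcript length used for Il17ra includes a stretch of 3′UTR past the end of the gene as the authors listed it, which lowers its value per kilobase. For Klf15 the listed gene ends at base 90479687, past the annotated end at base 90475238. Its value per kilobase, and with it its place in the order, may therefore be too high. In HKO livers the mean of Atp11a, 3.29 ± 1.16 CPM per kilobase, was above those of Zbtb2 at 2.71 ± 0.211 and Il17ra at 2.30 ± 0.308, with ranges that again overlapped.

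Among regulators of transcription and translation, Ski encodes a nuclear repressor that binds SMAD proteins and dampens TGF-beta signalling, the main fibrogenic pathway of the liver. Ski (chromosome 4, 155154075 to 155222536, minus strand) was 23.2, 24.2, 22.6 and 21.6 CPM in WT replicates 1 to 4 and 27.8, 23.8, 31.0 and 28.6 CPM in HKO replicates 1 to 4. Of the HKO livers, 3 lay above every WT liver, and HKO replicate 2 lay within the WT range. Mean levels were 22.9 ± 1.12 CPM for WT and 27.8 ± 3.02 CPM for HKO (SD, n = 4 each), which is 0.28 higher on the log2 scale with a standard error of 0.10.

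Zbtb2 encodes a zinc finger transcription factor of the BTB family. It (chromosome 10, 4367074 to 4388109, minus strand) was 6.94, 6.14, 7.11 and 7.36 CPM in the WT livers and 8.43, 8.03, 8.85 and 9.62 CPM in the HKO livers. The genotypes did not overlap, although these values rest on only 84 to 157 counts per liver. At 84 counts the counting error is 10.9% of the value, more than the 7.64% (WT) and 7.78% (HKO) by which the livers of a genotype varied. The log2 fold change was 0.34 (standard error 0.13).

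Klf15 encodes a Krüppel-like transcription factor that is induced by glucocorticoids and fasting and switches on amino acid breakdown and gluconeogenesis. Its levels (chromosome 6, 90462576 to 90479687, plus strand) were 87.1, 85.5, 103 and 119 CPM in the WT livers and 147, 132, 121 and 146 CPM in the HKO livers. The highest WT and the lowest HKO liver were close, at 119 and 121 CPM. Mean levels were 98.7 ± 15.8 CPM for WT and 137 ± 12.6 CPM for HKO, and the log2 fold change was 0.47 (standard error 0.11).

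Ddx3x encodes a DEAD-box RNA helicase that helps ribosomes start on structured messages and takes part in stress granules and innate immune signalling. Located on chromosome X (13281022 to 13293984, plus strand), it was 298, 301, 299.9 and 280.3 CPM in the WT livers and 334, 346, 349 and 337 CPM in the HKO livers. This is a small difference between tight groups without overlap, from 295 ± 9.74 to 342 ± 6.84 CPM, or a log2 fold change of 0.21 (standard error 0.07).

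Il17ra encodes the shared receptor chain through which IL-17 cytokines act on hepatocytes, stellate cells and leukocytes. On chromosome 6 (120463197 to 120483728, plus strand), its counts gave 12.9, 15.0, 14.3 and 14.6 CPM in the WT livers and 14.6, 18.8, 20.3 and 17.5 CPM in the HKO livers. HKO replicate 1 was inside the WT range and the other HKO livers were above it. The log2 fold change was 0.33 (standard error 0.12).

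Of the transporters, Slc25a51 carries NAD+ into mitochondria and Slc30a1 (ZnT1) exports zinc across the plasma membrane. Slc25a51 (chromosome 4, 45395924 to 45408767, minus strand) was 40.6, 66.0, 70.2 and 68.0 CPM in the WT livers and 96.2, 83.0, 83.6 and 71.7 CPM in the HKO livers. The groups did not overlap, but WT replicate 1 stood far below the other WT livers. The log2 fold change of 0.45 (standard error 0.16) was 0.30 without WT replicate 1.

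Slc30a1 (chromosome 1, 191906781 to 191913248, plus strand) was 66.3, 68.0, 68.9 and 72.2 CPM in the WT livers and 81.6, 74.3, 105 and 84.1 CPM in the HKO livers. Here the WT livers were close together, with a coefficient of variation of 3.62%, while the HKO livers varied by 15.4%. The log2 fold change was 0.33 (standard error 0.10), and 0.22 without HKO replicate 3. The antisense transcript 1700034H15Rik overlaps this gene and held between 1 and 11 counts per liver, against at least 802 counts for Slc30a1. The strand setting of the counting is not given in the sources used here, and the estimated count of Slc30a1 was listed with decimals in 7 livers.

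Edem1 encodes a lectin of the endoplasmic reticulum that hands misfolded glycoproteins over to ER-associated degradation. Its levels (chromosome 6, 108828641 to 108859357, plus strand) were 188, 187, 189.6 and 219 CPM in the WT livers and 246, 215, 211 and 231 CPM in the HKO livers. WT replicate 4 lay above HKO replicates 2 and 3, so the groups overlapped. The log2 fold change of 0.21 (standard error 0.09) was the smallest of the 9.

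Atp11a encodes a P4-ATPase, a flippase that moves phosphatidylserine and phosphatidylethanolamine to the inner leaflet of the plasma membrane. Measured on chromosome 8 (12757016 to 12868729, plus strand), it was 7.52, 15.6, 17.8 and 13.7 CPM in the WT livers and 16.2, 22.6, 37.0 and 23.6 CPM in the HKO livers. It had the largest log2 fold change of the 9, 0.86, and also the largest standard error, 0.32. WT replicate 1 was the lowest and HKO replicate 3 the highest liver, HKO replicate 1 lay within the WT range, and the log2 fold change was 0.67 without the first and 0.59 without the second of these livers. The antisense transcripts Gm15347 and Gm15350 overlap exons of this gene.

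**Figure D2:**
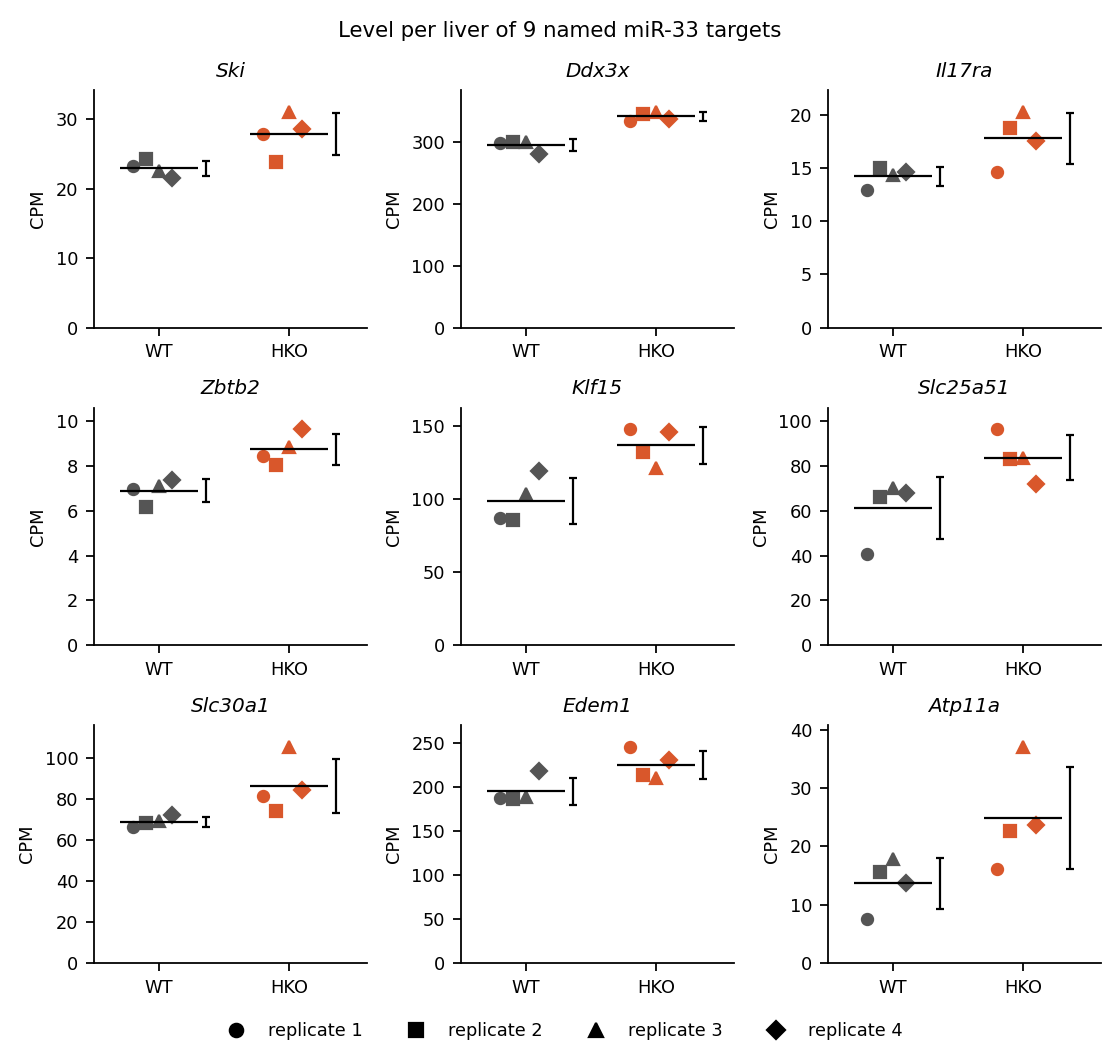
Each point is the CPM of a liver, with a marker shape for each replicate number (the same number in WT and HKO marks different mice), a line at the mean and a bar for the SD (n = 4 livers per genotype). Ddx3x, Zbtb2, Klf15, Slc25a51 and Slc30a1 show no overlap between genotypes, while in Ski, Il17ra, Edem1 and Atp11a at least 1 HKO liver falls at or below the highest WT liver.

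Side by side, the 9 fold changes were small and unequal. Their log2 fold changes ran from 0.21 in Edem1 to 0.86 in Atp11a with a median of 0.33, where the median of all genes tested was 0.01. All 9 were above 0, as were 51.6% of the genes tested. In 5 of the 9 genes the HKO livers lay above the WT livers without overlap, which was so in 5.34% of the genes tested. With edgeR's quasi-likelihood test and Benjamini-Hochberg adjustment, 1 of the 9 (Klf15) was among the genes called higher at an adjusted p under 0.05, 1.71% of all genes tested. DESeq2 called 3 (Ddx3x, Klf15 and Atp11a), where it called 2.97% of its genes higher, and edgeR with the replicate number as a block called 2 (Klf15 and Atp11a), where 1.25% were called higher. Of the fits that leave out a liver, only those without WT replicate 4 or HKO replicate 3 called Klf15. Since this contrast chose the genes, these counts are given as a description. Under total count scaling, with 118 genes called higher and 622 lower in place of 212 and 426, 0 of the 9 were called by edgeR (0.952% of genes were called higher), and the log2 fold changes of Ddx3x and Edem1 were 0.12 each.

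**Figure D3:**
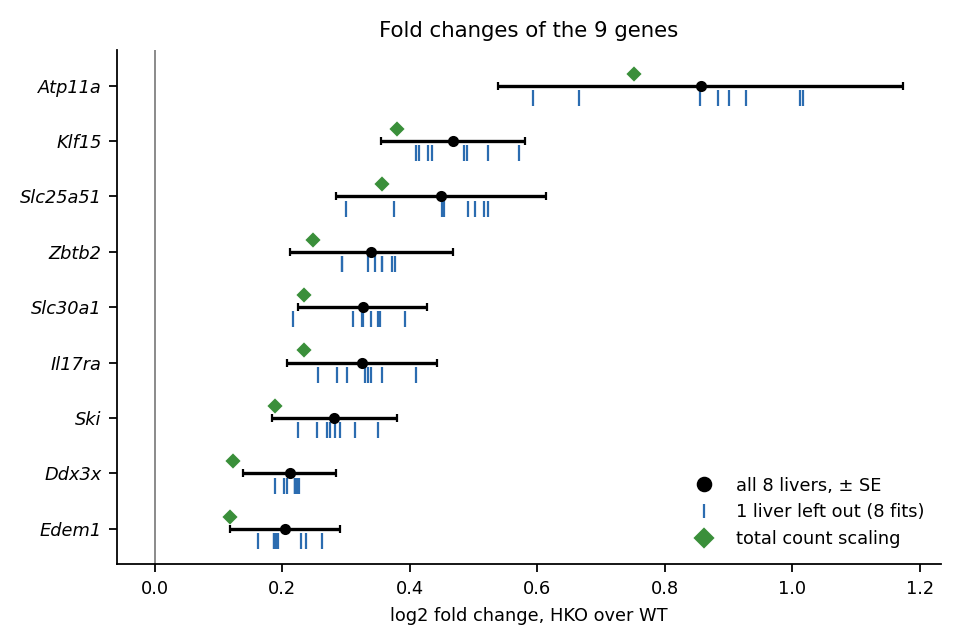
The x axis gives the log2 fold change of HKO over WT livers for the 9 genes, with black points and bars for the estimate from all 8 livers ± its standard error, blue ticks for the 8 fits that each leave out a liver, and green diamonds for total count scaling. Every estimate lies above 0, from 0.12 in Edem1 under total count scaling to 1.02 in Atp11a without HKO replicate 1.

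The livers of a genotype differed among themselves to different degrees. This spread enters the test behind the choice of the genes, since a gene with a small fold change passes it only with a low spread, so the values are a description. Within genotypes, the SD of Ddx3x was 0.04 on the log2 CPM scale, and 0.161% of the genes tested had an SD this low or lower. Edem1 (0.11), Zbtb2 (0.11) and Ski (0.12) also varied little, with 13.9%, 15.6% and 20.9% of genes at or below them. Slc30a1 (0.15), Il17ra (0.16) and Klf15 (0.19) stood nearer the middle, between 34.6% and 46.1%. Slc25a51 (0.29) and Atp11a (0.52) varied most, with 69.6% and 89.0% of genes at or below them. These shares are not adjusted for level, and the spread of a gene falls as its counts rise.

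**Figure D4:**
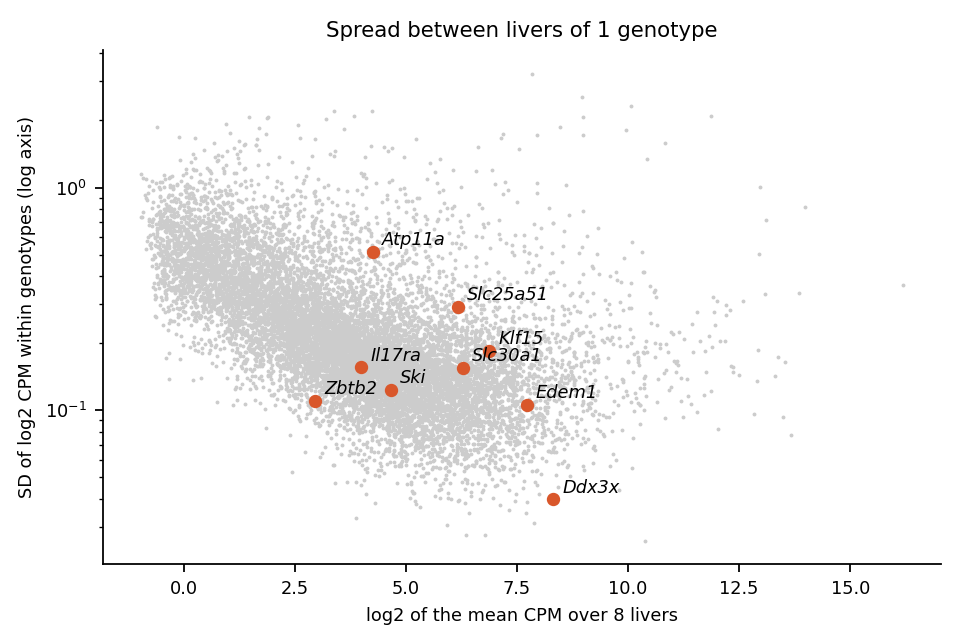
Each grey point is 1 of 12395 tested genes, with the log2 of its mean CPM over 8 livers on the x axis and the SD of log2 CPM within genotypes on the logarithmic y axis, and the 9 genes are in orange. Ddx3x lies at the lower edge of the cloud with an SD of 0.04, and Atp11a lies high for its level with 0.52.

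The livers did not carry the 9 genes up or down together. HKO replicate 3 was the highest HKO liver for 5 genes (Ski, Ddx3x, Il17ra, Slc30a1 and Atp11a) and the lowest for 2 (Klf15 and Edem1). WT replicate 1 was the lowest WT liver for 4 genes and the highest for 0. Over the 8 livers, the genes with the highest Pearson's r on log2 CPM were sought for each member among 7265 other genes with a mean of at least 10 CPM. For Klf15 they included Cth (r = 0.98, Spearman's rho = 0.95), which makes cysteine from cystathionine. Those closest to Edem1 were Hgd (r = 0.97) and Afmid (r = 0.97), enzymes of tyrosine and tryptophan breakdown. For Slc30a1 they were Prpf6 (r = 0.98) and Gstp1 (r = 0.97), for Ddx3x Fn1 (r = 0.98) and Ubtf (r = 0.97), and for Zbtb2 Pnp (r = 0.99) and Serpina1d (r = 0.98). For Slc25a51 they were Fbxo30 (r = 0.98) and Top2b (r = 0.96), for Ski Yipf1 and Zfp141 (r = 0.96 each), for Il17ra they included Rsrc2 (r = 0.96), and for Atp11a Gm5643 (r = 0.95) and Zdhhc18 (r = 0.94). These are the highest of many values over few livers that share a genotype difference and a library each, and are given as a description only.

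The families and pathways around the 9 genes, which the choice did not use, were tested in the same edgeR fit. Of all genes tested, edgeR called 5.15%, 212 higher and 426 lower in HKO livers, while DESeq2 called 7.67% and limma-voom 4.86%. Each list is described by its counts.

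Around Ski, 1 of 22 partners and TGF-beta signalling genes was called, with a list median of 0.08 on the log2 scale against 0.01 over all genes. This gene was higher in HKO livers in edgeR's test. The list's count was 0 without WT replicates 1, 2 or 4 or HKO replicate 4 and under total count scaling. Skil, the closest relative of Ski, was 17.1 CPM in WT and 20.4 in HKO livers on average, which did not pass the test (adjusted p = 0.396 from edgeR).

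The DEAD-box and DEAH-box helicases, with 23 tested genes, had 0 called by edgeR and by DESeq2, with 4 at an unadjusted p under 0.05 and a median log2 fold change of 0.07. Their lowest p-values belonged to Ddx56, which acts in ribosome assembly, with 13.5 ± 1.52 CPM for WT against 10.2 ± 0.422 CPM for HKO (adjusted p = 0.0716 from edgeR), and the splicing helicase Dhx15 (log2 fold change 0.22, adjusted p = 0.125 from edgeR). Ddx3y, the Y-linked copy of Ddx3x, was 138 ± 22 CPM for WT against 159 ± 8.6 CPM for HKO. Its log2 fold change of 0.21 was as large as that of Ddx3x, but its standard error was 0.11 (adjusted p = 0.336 from edgeR). Its estimated counts and those of Ddx3x were listed as exact whole numbers in all 8 livers, at the 6 significant digits or fewer that the file prints of a value with decimals.

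Around Il17ra, 0 of 18 tested genes of IL-17 receptors and signalling were called by edgeR, DESeq2 or limma-voom, with 1 at an unadjusted p under 0.05 and a median log2 fold change of 0.01. The partner chain Il17rc was at 5.24 ± 0.632 and 5.6 ± 0.858 CPM (adjusted p = 0.809 from edgeR), and the adaptor Traf3ip2 (Act1) at 1.78 ± 0.477 and 1.42 ± 0.494 CPM (adjusted p = 0.681 from edgeR). The lowest p-values were those of Tab2, with a log2 fold change of 0.24, and Traf3, with -0.28 (adjusted p of 0.13 and 0.261 from edgeR). The summed macrophage markers, another compartment that carries this receptor, lay between 86.6 and 229.5 CPM in WT and between 64.3 and 215 CPM in HKO livers, and their part in the Il17ra level was not tested.

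Of 37 tested ZBTB factors, 1 was called. Zbtb26 rose from 8.3 ± 0.687 to 11.6 ± 1.1 CPM (log2 fold change 0.48, standard error 0.12, adjusted p = 0.0435 from edgeR), and stayed called without WT replicate 4 or HKO replicate 2. Its call was lost without each of the other 6 livers (log2 fold changes of 0.42 to 0.49), under total count scaling (0.39), with the replicate block and without the expression filter (0.48 each). Zbtb25 was at 2.36 ± 0.624 and 2.37 ± 0.479 CPM, and the median of the list was 0.10.

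Of the other Krüppel-like factors, 0 of 12 tested were called by edgeR, DESeq2 or limma-voom, with 3 at an unadjusted p under 0.05 and a median log2 fold change of 0.17. Klf9, also induced by glucocorticoids, was 318 ± 34.6 CPM for WT against 382 ± 15.7 CPM for HKO (adjusted p = 0.132 from edgeR), and Klf6 was 24.4 ± 5.51 and 16.8 ± 3.47 CPM (adjusted p = 0.129 from edgeR). Genes of amino acid catabolism and gluconeogenesis, the processes for which Klf15 is known, had 3 of 19 called, all higher, and a median log2 fold change of 0.38. Tat, which starts tyrosine breakdown, rose from a mean of 521 CPM (394 to 635 over the WT livers) to 955 CPM (795 to 1153 over the HKO livers), with a log2 fold change of 0.87 and an adjusted p of 0.0151 from edgeR, and kept its call whichever liver was left out. Agxt, which detoxifies glyoxylate, rose by 0.73 and Hpd, the enzyme after Tat, by 0.68 on the log2 scale (adjusted p of 0.0176 and 0.0219 from edgeR). Without WT replicate 1 neither was called (0.74 and 0.60), and Hpd was also not called without WT replicate 2 (0.65) or HKO replicate 4 (0.57). The gluconeogenic genes Pck1, G6pc and Fbp1 had log2 fold changes of 0.38, 0.14 and -0.08 and were not called (adjusted p of 0.317, 0.792 and 0.731 from edgeR). The calls stood beside those of the hepatocyte markers Cps1, Ass1 and Hnf4a, of which Cps1 alone kept its call without each liver, and the part of these in the list was not tested. DESeq2 called 6 of the 19 genes, while edgeR called 1 without WT replicate 1 and 6 without HKO replicate 3.

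Around Slc25a51, 2 of 20 tested genes of NAD synthesis and use were called, in opposite directions. Kynu, an enzyme on the path from tryptophan to NAD, rose from 230.1 ± 23.3 to 324 ± 30 CPM (log2 fold change 0.49, adjusted p = 0.015 from edgeR). Sirt5, a mitochondrial NAD-dependent desuccinylase, fell from 13.1 ± 0.9 to 8.44 ± 1.6 CPM (log2 fold change -0.63, adjusted p = 0.0255 from edgeR). Nmnat3, the mitochondrial NAD-making enzyme, was 7.73 ± 1.18 and 6.48 ± 0.513 CPM (adjusted p = 0.384 from edgeR). The list median was -0.02, and DESeq2 and limma-voom called 4 of these genes each. Leaving out WT replicate 2 removed both calls in edgeR, leaving out WT replicate 1 removed both as well (0.44 for Kynu and -0.62 for Sirt5), and the call of Sirt5 was kept only without WT replicate 3 or HKO replicate 2.

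Of 21 tested zinc transporters and metallothioneins, 2 were called. The hepatic zinc importer Slc39a14 (ZIP14) rose from 184 ± 15.3 to 253 ± 39.5 CPM (log2 fold change 0.46, standard error 0.11, adjusted p = 0.0378 from edgeR), but not with the replicate block (0.45) or total count scaling (0.37), nor without WT replicates 1, 2 or 4 or HKO replicates 1 or 2 (0.37 to 0.47). Slc39a5, another zinc importer, was at 1.41, 1.05, 0.945 and 0.854 CPM in the WT livers and at 0.337, 0.0772, 0.113 and 0 CPM in the HKO livers, which is a fall (adjusted p = 0.0169 from edgeR) between low levels. HKO replicates 2, 3 and 4 held fewer than 3 counts each. The gene passed the expression filter only through the WT livers, where it is higher, so its p-value is a description. Slc39a5 was not called without WT replicate 1 or WT replicate 2. The zinc-induced metallothioneins Mt1 and Mt2 had log2 fold changes of -0.99 and -1.61 with wide spread and were not called by edgeR (adjusted p of 0.236 and 0.228). DESeq2 called 3 genes of the list, Mt1 among them (adjusted p = 0.0354 from DESeq2). WT replicate 2 held the most of both, 37.8 CPM of Mt1 and 29.8 CPM of Mt2, and without this liver the log2 fold change of Mt1 was -0.51. The manganese exporter Slc30a10 was 37.6 ± 2.4 and 43.1 ± 4.48 CPM (adjusted p = 0.277 from edgeR).

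Around Edem1, 1 of 24 genes of ER-associated degradation and glycoprotein quality control was called. Xbp1, the transcription factor of the unfolded protein response that induces Edem1, rose from 132 ± 18.6 to 209 ± 39.9 CPM (log2 fold change 0.66, standard error 0.14, adjusted p = 0.0216 from edgeR). Its call was absent with the replicate block (0.65) and without WT replicate 2 (0.59) or WT replicate 3 (0.61). The paralogs Edem2 and Edem3 had log2 fold changes of 0.12 and -0.17 (adjusted p of 0.542 and 0.322 from edgeR), and the chaperone Hspa5 of -0.09 (adjusted p = 0.888 from edgeR). Hspa5 was 762, 724, 615 and 1440 CPM in the WT livers and 877, 823, 816 and 807 CPM in the HKO livers. WT replicate 4 lay far above the other WT livers, all of which were below every HKO liver. The list median was -0.01.

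Among 14 tested P4-ATPases and genes of phosphatidylserine exposure, Atp8b1 rose and Atp9a fell. Atp8b1, the canalicular flippase that protects against cholestasis, went from 61.3 ± 5.68 to 86.5 ± 11 CPM (log2 fold change 0.50, standard error 0.10, adjusted p = 0.017 from edgeR). The study also names it as a miR-33 target raised in these livers, so its direction is not independent. It was not called without WT replicates 1 or 2 (0.48 each) or HKO replicate 4 (0.45). Atp9a, an endosomal member, went from 35.7 ± 8.23 to 19.7 ± 3.01 CPM (log2 fold change -0.85, standard error 0.17, adjusted p = 0.0203 from edgeR). Among the fits without a liver, it was called only without WT replicate 4 or HKO replicate 1. Atp11b, a close relative of Atp11a, had a value of 0.07 on the log2 scale (adjusted p = 0.653 from edgeR). The shared flippase subunit Tmem30a had 0.15 (adjusted p = 0.482 from edgeR).

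**Figure D5:**
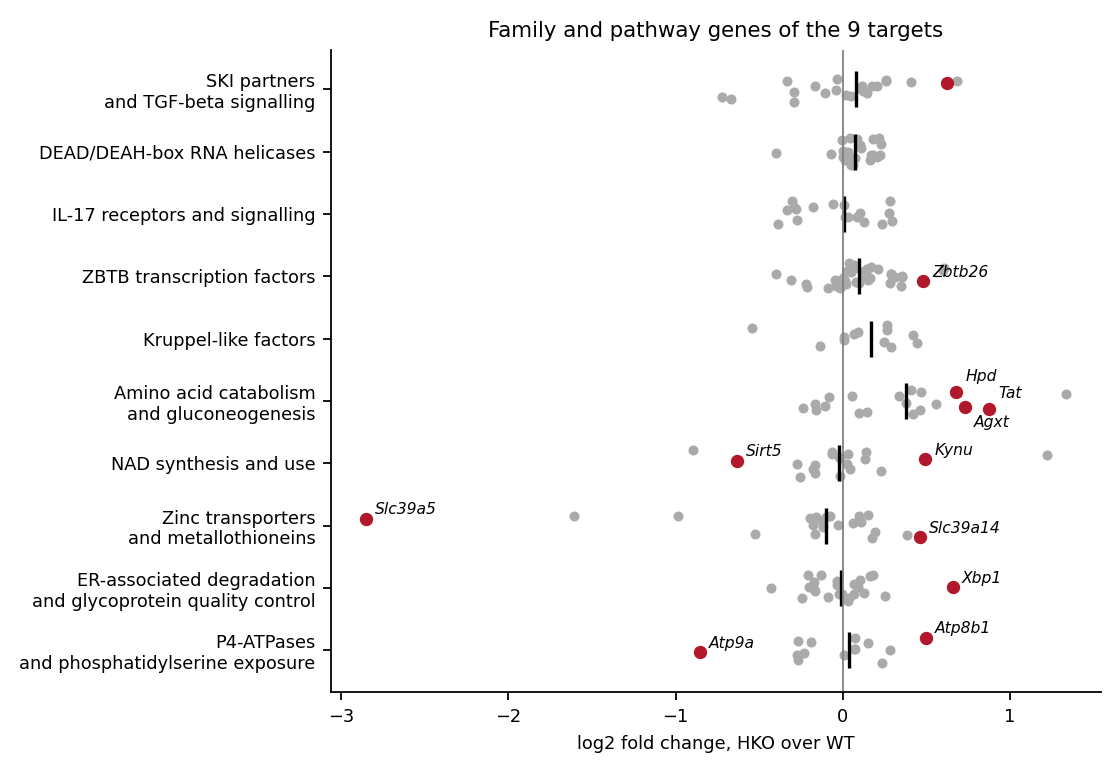
Each point is a tested gene of a family or pathway around the 9 targets, with its log2 fold change of HKO over WT livers on the x axis, red where the adjusted p from edgeR is under 0.05, with a name at all but 1 of these, and black bars mark list medians. Medians lie between -0.10 for zinc genes and 0.38 for amino acid catabolism and gluconeogenesis, and no list has more than 3 called genes.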

How the data were processed

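Liver RNA was depleted of rRNA and read in single reads. The labels give 45 cycles as well as 75 bp reads, and also name a small RNA kit, so the read length and which type of library this was are uncertain. Per the submitters' processing notes, STAR and Partek were used, and the authors deposited estimated counts per gene from Partek's expectation-maximization model, without normalization. Versions are not given in the sources used here, and 0 columns were left unmapped. Coordinates were taken as listed, where the stop is often 1 base past the annotated end. Of 12388 tested symbols found in RefSeq of GRCm38, 82.6% had the same start or end.

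Estimated counts were rounded and fitted with edgeR 4.0.16 in R 4.3.3 (TMM scaling, expression filter with minimum count 10, robust quasi-likelihood test, Benjamini-Hochberg adjustment over 12395 genes, threshold 0.05). The standard error of a log2 fold change was derived from the F statistic, as the size of the change over the root of F. A prior count of 2 was added for log2 CPM. DESeq2 1.42.0, limma-voom (limma 3.58.1), RLE and total count scaling, no expression filter, the replicate number as a block and each liver left out were alternatives. Seed matches were read from GENCODE M21 transcripts with Python 3.11.15, and plots used matplotlib 3.10.9. p-values weigh the genotype difference against the spread between mice of a genotype. With 1 library each, this spread includes that of library preparation and counting. The highest share of identical values between any pair of libraries was 1.28%.

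The members, gene lists and tests were chosen with earlier results of these data known. Named list genes are up to 4 with the largest change among those called, or the 2 with the lowest p where none was, with paralogs and partners of the members set in the design. Cps1, Ass1, Hnf4a, Col1a1, Col3a1, Pck1, G6pc, Fbp1 and Hspa5 are named outside this rule, after their values were seen. In simulated counts of this comparison over 12395 genes, edgeR recovered 26.9% of genes changed by 0.5, 74.6% of those changed by 1 and 97% of those changed by 2 on the log2 scale. Some genes and a sequence are not reported here.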

Additional observations from a re-analysis of the deposited data

Results flagged for a closer look

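Among 54 groups of 4 livers (CPM of the 9 genes and of the named family genes, and library totals), 4 contained a liver whose gap to the nearest value took up most of the range of the group (Dixon's criterion). About 2.7 such groups arise by chance. WT replicate 1 had 40.6 CPM of Slc25a51 while the other WT livers held 66.0 to 70.2 CPM. WT replicate 4 had 280.3 CPM of Ddx3x against 298 to 301 CPM, 219 CPM of Edem1 against 187 to 189.6 CPM, and 69.8 CPM of Atp8b1 against 58.2 to 58.6 CPM.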

How the results depend on the processing

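All 9 genes had a log2 fold change above 0 in each of the 14 alternative fits, and their median, 0.33, stayed between 0.256 and 0.378 when each liver was left out. These fits reuse the livers in which the genes were chosen for being higher in HKO. The shared sign therefore follows from the choice and is a description only. The match count of 9 genes was 9 over all annotated 3′UTRs. In place of 638 genes called over all genes, DESeq2 called 989, and leaving out each liver gave 222 (without WT replicate 2) to 599, with 293 without WT replicate 1 and 369 without HKO replicate 4. With DESeq2 the called genes numbered 2 of the ZBTB factors, 6 of amino acid catabolism and gluconeogenesis, 4 of NAD synthesis and use and 3 of ER-associated degradation. limma-voom called 4 of NAD synthesis and use. Total count scaling gave 0 of the SKI list, 1 of the helicases, 0 of the ZBTB factors, 1 of the zinc list and 2 of ER-associated degradation. Without the expression filter there were 0 ZBTB factors and 5 genes of amino acid catabolism and gluconeogenesis. The replicate block gave 470 genes in all, 0 ZBTB factors, 1 zinc gene and 0 of ER-associated degradation. Over the fits without a liver, the called genes ranged from 0 to 1 in the SKI list, the ZBTB factors, the Krüppel-like factors and ER-associated degradation, from 1 to 6 in amino acid catabolism, from 0 to 3 in NAD, and from 0 to 2 in the zinc and P4-ATPase lists. The cause of these moves was not tested, beyond the smaller number of livers.

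Replicate numbers 1 to 4 belong to different mice. Deviations of same-numbered livers from their genotype mean had correlations between -0.15 and 0.01, and whether these livers shared a handling step was not tested. The block removed the calls of Zbtb26, Slc39a14 and Xbp1, and of the markers Hnf4a and Col3a1. It added Atp11a to the called genes of the 9. A fit with the block also has fewer residual degrees of freedom. At 84 counts, as for Zbtb2, counting error alone is 10.9%.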
